A study of Mus musculus with 14 samples.

Results

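The mouse miRNA miR-511 was followed in small RNA libraries of macrophages and of the exosomes they release. Its members were the lines of the deposited count table named mmu-miR-511-3p and mmu-miR-511-5p, 2 of 1250 mature miRNA lines, taken by name and read in all 14 libraries. These were 4 IL4 exosome, 4 control exosome, 3 IL4 lysate and 3 control lysate libraries. Each library is labelled as Mus musculus, with bone marrow as its source and excised bone as its tissue. The IL4 libraries are labelled as stimulated macrophages and carry IL4 in their titles, and the controls are labelled as wild type control. IL4 is a cytokine that drives macrophages towards alternative activation. The labels used here give no strain, age, dose or duration of stimulation. They also do not say if replicates are separate animals or separate cultures, and each p-value below therefore reflects spread among libraries that may be technical. The titles carry dates, and within a compartment every date has 1 IL4 and 1 control library; exosomes and lysates have different dates.

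The gene of miR-511 lies inside an intron of Mrc1, which encodes the mannose receptor (CD206), an endocytic receptor of macrophages, dendritic cells and some endothelia. Mrc1 is a standard marker of the IL4-activated state, and the miRNA is made from its transcript. A miRNA hairpin yields a strand from each side, called the 5p and 3p arms, and usually 1 of them is kept more than the other. In mouse tumour-associated macrophages the 3p arm has been described as the active strand, with the kinase gene Rock2 among its targets. In human myeloid cells miR-511 has been linked to Toll-like receptor 4.

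The hairpin is shown because the arm ratio below compares its sides, and the 3p strand because it is the arm that moved most. In the GRCm38 (mm10) build, Mir511 lies at chr2:14261003-14261081 on the plus strand, in intron 5 of the 30-exon transcript of Mrc1 (chr2:14229392-14332057, plus strand), and its end is 107 bases before exon 6. The sequences are RefSeq's for build GRCm38.p6, in the first with the seed (bases 2 to 8) in capitals and in the second with the 3p strand in capitals:
miR-511-3p (chr2:14261051-14261072): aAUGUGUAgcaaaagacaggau
Mir511 hairpin: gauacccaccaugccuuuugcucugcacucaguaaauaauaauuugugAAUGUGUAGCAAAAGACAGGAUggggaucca
The 3p strand filled bases 49 to 70 of the 79-base hairpin. In the predicted fold (ViennaRNA, -27.4 kcal/mol) 18 of its 22 bases were paired, opposite bases 8 to 29. Among 1679 mature mouse miRNAs searched, 0 others had the same bases 2 to 8. Bases 2 to 7 were shared by 2, miR-1187 and miR-1198-5p, named after the values were seen. The line of miR-1198-5p was not called with IL4 in lysates (log2 fold change 0.17, SE 0.17; edgeR adjusted p = 0.804). No other line of the count table equalled either arm in all libraries.

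Both arms share the promoter of the host gene, shown here because they rose together with IL4. In the 300 bases around RefSeq's Mrc1 start (250 before it and 50 after it), a start that differs from that of the transcript above, the letters GAGGAA, core of the binding motif of the myeloid factor PU.1, occurred 3 times, each on the minus strand as TTCCTC (capitals):
Mrc1 promoter (chr2:14229164-14229463, plus strand): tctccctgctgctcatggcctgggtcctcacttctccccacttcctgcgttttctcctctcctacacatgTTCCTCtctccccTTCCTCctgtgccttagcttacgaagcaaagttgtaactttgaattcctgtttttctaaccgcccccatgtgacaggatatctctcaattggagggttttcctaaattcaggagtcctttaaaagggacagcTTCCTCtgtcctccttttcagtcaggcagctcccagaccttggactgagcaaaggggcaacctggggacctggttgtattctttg
Of all mouse promoters of that length, 28.3% held GAGGAA on either strand and 0.685% held it at least 3 times. The motif of the IL4-activated factor STAT6, TTC and GAA with any 4 bases between, which reads alike on both strands, occurred 0 times in this window and in 6.95% of promoters. No binding was measured in these libraries.

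Depth differed widely between the compartments. Total miRNA counts ran from 28417 to 411671 in the exosome libraries and from 3941480 to 6792079 in the lysates, so 1 read was worth 2.43 to 35.2 CPM (counts per 1000000 of the library's total) in exosomes and 0.147 to 0.254 CPM in lysates. The myeloid marker miRNAs (miR-223-3p and both arms of miR-142a, 3 of 3 detected in every group) took 1.61% to 2.04% of counts in IL4 exosomes, 2.70% to 3.70% in control exosomes, 1.21% to 1.81% in IL4 lysates and 2.66% to 3.16% in control lysates.

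In cell lysates IL4 raised both arms of miR-511. The 3p arm stood at 340, 231 and 206 CPM in IL4 lysate replicates 1 to 3, against 98.2, 112.3 and 114 CPM in control lysate replicates 1 to 3. Every IL4 lysate lay above every control lysate, and IL4 replicate 1, of 23 January, was the highest of the 6. These levels rest on 911 to 1988 counts with IL4 and 565 to 763 in controls. The mean was 259 ± 71.1 CPM in IL4 lysates and 108 ± 8.64 CPM in control lysates (SD, n = 3 each). The fold change was 2.68 (log2 1.42, SE 0.23, 95% confidence interval 0.90 to 1.95; adjusted p = 0.0117, edgeR quasi-likelihood with Benjamini-Hochberg adjustment). Within dates the IL4 library was higher at 3 of 3, by 3.46-fold on 23 January, 2.06-fold on 14 March and 1.81-fold on 21 March.

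The 5p arm stood at 71.4, 53.8 and 42.6 CPM in IL4 lysate replicates 1 to 3, against 35.1, 26.1 and 28.8 CPM in control lysate replicates 1 to 3. Again the groups did not overlap, and replicate 1 was the highest within each of them. For either arm such separation of 3 against 3 libraries has an exact permutation p of 0.1 (two-sided), so it is not rare for a line. The share of all lines that separated in this way was not counted. The mean was 55.9 ± 14.5 CPM in IL4 lysates and 30.0 ± 4.64 CPM in control lysates (SD, n = 3 each). The fold change was 2.12 (log2 1.08, SE 0.21, 95% confidence interval 0.61 to 1.56; edgeR adjusted p = 0.0224), with 2.03, 2.06 and 1.48-fold at the 3 dates. Over all 443 lines tested, 7.22% were called, 26 higher (5.87%) and 6 lower (1.35%); with scaling by library size alone the split was 8 higher and 6 lower. Among the 26, the 3p arm ranked 12 and the 5p arm 19 by log2 fold change. In bulk libraries more cells of a type and more RNA per cell cannot be told apart, so a rise can be either.

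**Figure D1:**
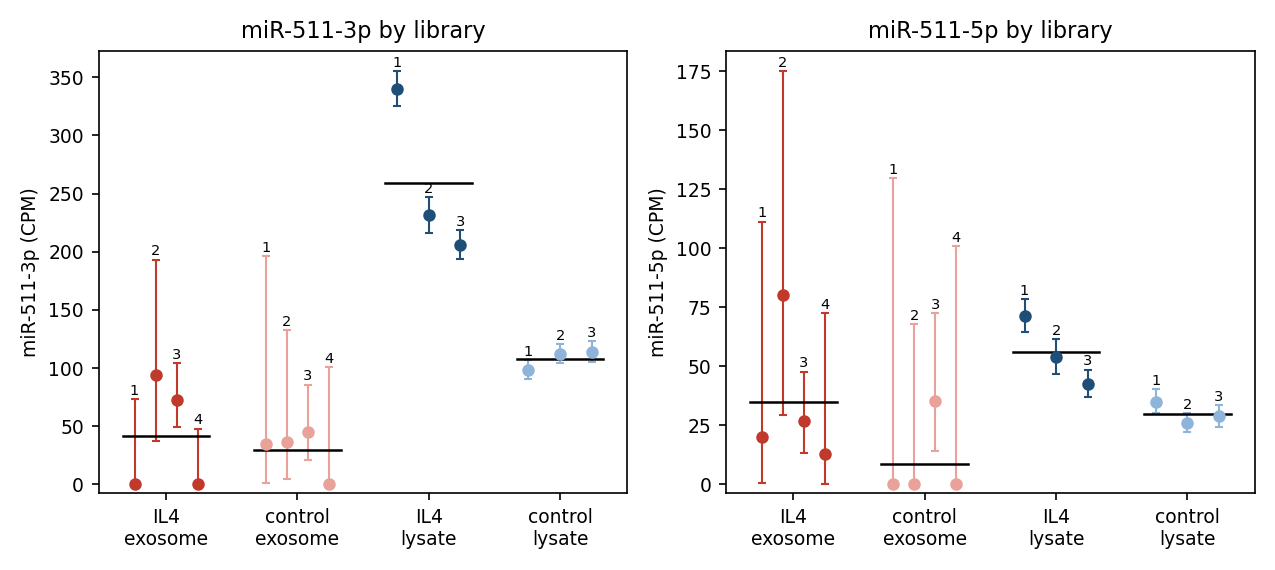
Level of each miR-511 arm in CPM in every library, by group, with exact 95% Poisson intervals (counting error only), replicate numbers and the group mean as a line. In lysates the 3 IL4 libraries sit above the 3 controls for both arms, while the exosome libraries have wide intervals and several at 0.

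The call of the 3p arm ended without control lysate replicate 2 (log2 fold change 1.47, edgeR adjusted p = 0.0802) and in 1 fit over all 14 libraries (1.31, adjusted p = 0.546), in which lysates and exosomes share 1 estimate of spread. That of the 5p arm ended with scaling by library size (0.90, edgeR adjusted p = 0.149), in the fit over all 14 libraries (0.99, adjusted p = 0.843), and without IL4 lysate replicate 2 (adjusted p = 0.106), IL4 replicate 3 (0.0607), control replicate 2 (0.169) or control replicate 3 (0.0956).

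**Figure D2:**
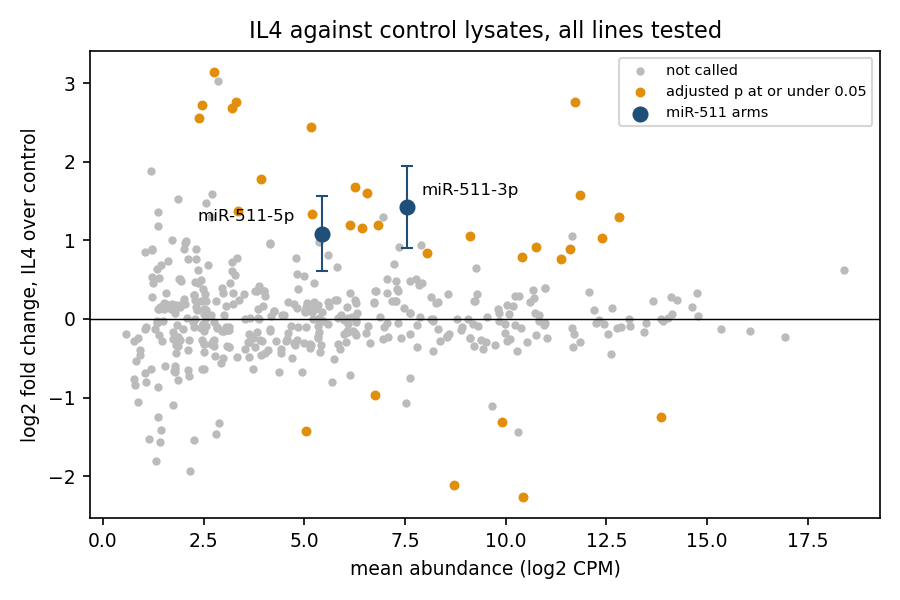
Log2 fold change of IL4 over control lysates against mean abundance (log2 CPM) for the 443 lines tested, with the 32 called lines in orange and the miR-511 arms in blue with 95% confidence intervals. Both arms lie above 0, at 1.42 (3p) and 1.08 (5p).

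By abundance the 3p arm ranked 109 of 991 lines with a count in IL4 lysates and 143 of 1063 in control lysates. The 5p arm ranked 176 and 221 in IL4 and control lysates. Both arms were thus of middle to high abundance in the cells, and neither was among the leading miRNAs.

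Beside miR-511 stood other miRNAs reported in alternative activation, a list chosen with earlier results of these data known. Of its 12 tested lines 5 rose and 2 fell, against 5.87% higher and 1.35% lower over all lines tested, with a median log2 fold change of 0.83 against 0.00 over all lines tested. The risers were miR-146b-5p, a brake on NF-kB signalling (2.76, SE 0.32), both arms of miR-378a, which lies in an intron of Ppargc1b (1.58 for 3p and 1.60 for 5p), miR-125b-5p (1.30) and miR-99a-5p (1.03). Both arms of miR-223, which restrains granulocyte production, fell (-1.24 for 3p and -2.11 for 5p). The most abundant members that did not pass were miR-21a-5p (0.63, SE 0.23) and let-7c-5p (0.33, SE 0.14). Of 9 tested lines that Toll-like receptor or NF-kB signalling induces, 2 rose, miR-9-5p by 2.45 and miR-21a-3p by 1.16. The feedback inhibitor miR-146a-5p fell (-2.26), and the median of the 9 was 0.51. These are 2 higher and 1 lower of 9 lines, against the same 5.87% and 1.35% of all lines.

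Other intronic miRNAs were compared because miR-511 is one. Of 44 tested lines from introns of other protein-coding genes, 3 rose and 0 fell, against 5.87% higher and 1.35% lower over all lines tested, and their median log2 fold change was -0.03. The 3 were the miR-378a arms and miR-149-5p (1.69, SE 0.35), from an intron of Gpc1. The most abundant members that did not pass were miR-26b-5p (-0.03), miR-93-5p, from an intron of Mcm7 (-0.19), and miR-15b-5p, from an intron of Smc4 (-0.06). The endothelial miR-126a, given because some endothelia express Mrc1, had -0.67 (SE 0.35) for its 3p arm and 0.46 (SE 0.35) for its 5p arm, neither called. Both its arms were detected in lysates, where together they took 0.00134% to 0.00326% of counts with IL4 and 0.00274% to 0.00339% in controls.

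Over the 6 lysates the line most like miR-511-3p, among 281 others with a mean of at least 50 counts per lysate, was miR-511-5p (Pearson r = 0.929 on log2(CPM + 1), a description over libraries that share the IL4 contrast). Next came miR-501-3p (r = 0.901), miR-125b-2-3p (0.901), miR-532-5p (0.890) and miR-146b-5p (0.881). For the 5p arm they were miR-362-5p (0.976), miR-532-5p (0.966), miR-188-5p (0.957), miR-511-3p (0.929) and miR-500-5p (0.922). Of these, miR-188-5p, miR-362-5p, miR-501-3p, miR-500-5p and miR-532-5p belong to the miRNA cluster in an intron of Clcn5 on the X chromosome. Among them miR-532-5p stood at 3744 ± 456 CPM in IL4 lysates and 2316 ± 318 CPM in control lysates (SD, n = 3 each). The lines that ran most opposite to the 3p arm were let-7e-5p (r = -0.941), miR-99b-3p (-0.917) and miR-99b-5p (-0.911), and to the 5p arm miR-125a-5p (-0.967), miR-99b-5p (-0.963) and let-7e-5p (-0.947). All of these opposite lines come from the hairpins of the miR-99b/let-7e/miR-125a cluster. For example, let-7e-5p averaged 500.5 CPM in IL4 lysates and 1446 CPM in control lysates (log2 fold change -1.32, SE 0.29; edgeR adjusted p = 0.0310). The line of miR-99b-3p was called too (-1.43, edgeR adjusted p = 0.0354). Those of miR-99b-5p (-1.44, edgeR adjusted p = 0.0561) and miR-125a-5p (-1.11, adjusted p = 0.216) were not.

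In lysates the 3p arm was the more abundant of the pair in every library. Its share of the miR-511 counts was 82.6%, 81.1% and 82.8% in IL4 lysate replicates 1 to 3, against 73.7%, 81.2% and 79.8% in control lysate replicates 1 to 3. In 3p to 5p counts this is a ratio of 4.30 to 4.83 with IL4 and 2.80 to 4.31 in controls. Control replicate 1 was the low one, and its exact binomial interval (95%, Clopper-Pearson) of 70.4% to 76.7% lay below those of the other lysates; IL4 replicate 2 and control replicate 2 were nearly equal. The mean share was 82.2% ± 0.935 in IL4 lysates and 78.2% ± 4.00 in control lysates (SD, n = 3 each). This difference of 3.99 percentage points did not exceed the replicate spread (two-sided exact permutation p = 0.2; smallest possible 0.1). Within dates it was 8.96, -0.0482 and 3.04 points.

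In exosomes miR-511 was at the edge of detection. The 3p arm had 0, 7, 30 and 0 counts in IL4 exosome replicates 1 to 4, against 1, 2, 9 and 0 counts in control exosome replicates 1 to 4. As levels these were 0, 93.8, 72.9 and 0 CPM with IL4 and 35.2, 36.8, 45.2 and 0 CPM in controls. The IL4 exosomes thus lay both above and below all controls with a count, and a count of 0 still allows up to 60.0 CPM in IL4 replicate 1, 39.1 CPM in IL4 replicate 4 and 82.0 CPM in control replicate 4 (3 counts of the total; counting error only, as for all intervals here, since PCR reads are not independent molecules). The mean was 41.7 ± 48.9 CPM in IL4 exosomes and 29.3 ± 20.02 CPM in control exosomes (SD, n = 4 each).

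The 5p arm had 1, 6, 11 and 1 counts in IL4 exosome replicates 1 to 4, against 0, 0, 7 and 0 counts in control exosome replicates 1 to 4. That is a count in 4 of 4 IL4 exosomes and in 1 of 4 control exosomes, of which the IL4 libraries were the deeper at every date. As levels these were 19.99, 80.4, 26.7 and 13.0 CPM with IL4, against 0, 0, 35.2 and 0 CPM in controls. Each of the 3 controls at 0 allows over 50 CPM (55.2 to 105.6 CPM), so they do not lie below the IL4 exosomes beyond counting error. The mean was 35.03 ± 30.7 CPM in IL4 exosomes and 8.79 ± 17.6 CPM in control exosomes (SD, n = 4 each).

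Neither arm passed the filter on low counts in the exosome fit, so each was compared by an exact permutation test on CPM (two-sided, 4 against 4 libraries, smallest possible p = 0.0286). The difference was 12.4 CPM for the 3p arm (exact permutation p = 0.657) and 26.2 CPM for the 5p arm (p = 0.2), neither larger than the spread between replicates. Of the 182 lines that passed the filter, 0.549% were called. With counts summed over each group, the IL4 to control ratio per total count was 1.60 for the 3p arm (95% counting interval 0.817 to 3.37; 37 against 12 counts) and 1.41 for the 5p arm (0.567 to 3.97; 19 against 7 counts). These sums rest on replicate 3 of each group: without IL4 exosome replicate 3 the ratio of the 3p arm was 0.922 (7 against 12 counts), without control exosome replicate 3 it was 2.40 (37 against 3), and without that control library the 5p arm had 0 control counts. These intervals hold both no change and the ratios of the lysates computed the same way, 2.45 for the 3p arm and 1.91 for the 5p arm. Without IL4 exosome replicate 2 the difference was -5.01 CPM for the 3p arm and 11.1 CPM for the 5p arm.

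**Figure D3:**
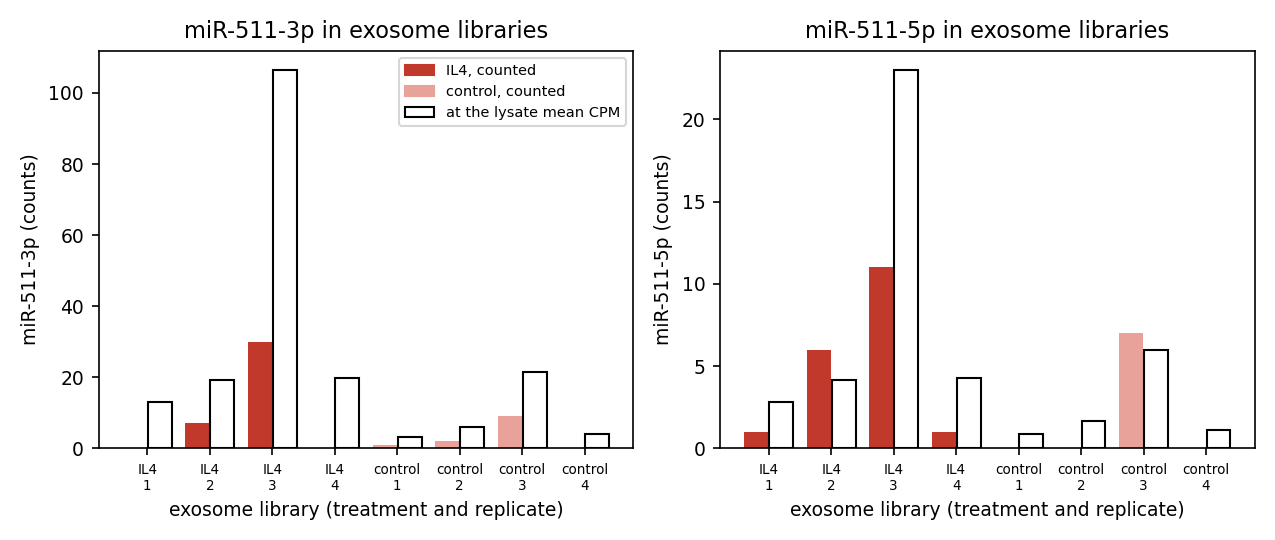
Counts of each arm in every exosome library (filled bars, IL4 left and control right) beside the count that the mean CPM of the lysates of the same treatment would give at that library's total (open bars). For the 3p arm every filled bar is below its open bar, and IL4 replicates 1 and 4 had 0 counts where 13.0 and 19.9 would stand.

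Exosomes carried less miR-511-3p per total miRNA count than the cells. In control samples its level was 0 to 45.2 CPM in exosomes and 98.2 to 114 CPM in lysates. No control exosome library reached the lowest control lysate in its measured level. Counting error leaves this open for replicates 1, 2 and 4, whose 95% Poisson intervals reach 196.1, 132.9 and 100.9 CPM. Only the interval of replicate 3 ends below the lowest control lysate, at 85.8 CPM. With counts summed over the control exosomes the interval was 19.5 to 65.8 CPM, and 9 of the 12 counts came from replicate 3. With TMM factors the log2 fold change in controls was -2.51 (SE 0.71, 95% confidence interval -4.04 to -0.99; edgeR adjusted p = 0.00816). In IL4 samples the level was 0 to 93.8 CPM in exosomes and 206 to 340 CPM in lysates, again without overlap, and the log2 fold change was -3.11 (SE 0.63, interval -4.46 to -1.77; edgeR adjusted p = 0.00116). In these comparisons 21.6% of 338 lines were called lower in control exosomes and 19.2% in IL4 exosomes, 50.9% and 49.4% in either direction. With IL4 the 3p arm ranked 4 from the bottom of all lines tested by fold change, and in controls 11.

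Scaling sets the size of these values. Scaling by library size instead of TMM factors raised the median of all lines by 0.81 in controls and by 0.70 with IL4. The split of calls moved with it, to 126 higher and 16 lower in place of 99 and 73 in controls, and to 128 higher and 12 lower lines in place of 30.2% higher and 19.2% lower with IL4. Relative to the median of all lines, the 3p arm was at -2.33 with TMM factors and -2.28 with library size in controls, and at -3.10 and -3.08 with IL4. Its call in controls ended with library size (-1.65, edgeR adjusted p = 0.0973), and the call with IL4 held (-2.40, adjusted p = 0.00836).

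The 5p arm did not pass in either comparison. Its log2 fold change was -1.61 in controls (SE 0.75, 95% confidence interval -3.21 to 6.06e-05; edgeR adjusted p = 0.0871) and -1.41 with IL4 (SE 0.65, interval -2.79 to -0.02; adjusted p = 0.0877). Its levels overlapped: 0 to 35.2 CPM in control exosomes against 26.1 to 35.1 CPM in control lysates, and 13.0 to 80.4 CPM in IL4 exosomes against 42.6 to 71.4 CPM in IL4 lysates. The deepest control exosome, replicate 3, was at the level of the highest control lysate. Its call appeared without IL4 exosome replicate 2 (log2 fold change -1.88, edgeR adjusted p = 0.0421), and without control exosome replicate 3 the control exosomes were all at 0, so that no fold can be given.

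Markers of other cell types moved between the compartments too. The endothelial miR-126a arms (2 of 2 detected in every group) took 0.410% to 1.59% of counts in IL4 exosomes and 0.686% to 2.75% in control exosomes, against the lysate shares given above. Both were called higher in exosomes under either treatment, against 29.3% of the 338 lines tested in controls and 30.2% with IL4. The 4 erythroid marker lines (miR-451a, both miR-144 arms and the joined miR-486 line, all detected) took 2.18% to 3.05% in IL4 exosomes, 2.95% to 5.53% in control exosomes, 0.0120% to 0.0152% in IL4 lysates and 0.0117% to 0.0211% in control lysates. With IL4, the mean share of the 2 lymphocyte lines was 0.0956% in exosomes and 0.00163% in lysates, that of the 4 stromal lines 0.256% and 0.0166%, that of the 4 epithelial lines 3.25% (0.0296% to 10.5% over libraries) and 0.0127%, and that of the hepatic line miR-122-5p 0.380% and 0.0106%. In controls these lists were at 0.148%, 0.351%, 1.80% (0.0754% to 4.87%) and 0.767% in exosomes, and at 0.00201%, 0.0149%, 0.0171% and 0.0137% in lysates, where 1 of the 4 epithelial lines was at 0 in each lysate group. The part of these markers in the lower miR-511-3p of exosomes was not tested. The myeloid markers moved as well. In controls miR-223-3p (log2 fold change -0.89, edgeR adjusted p = 0.00124) and miR-142a-3p (-0.82, adjusted p = 0.0161) were lower in exosomes than in lysates. With IL4 miR-142a-3p was lower in exosomes (-0.74, edgeR adjusted p = 0.0273). These are 2 of 3 and 1 of 3 marker lines, against 21.6% and 19.2% of all lines tested called lower. A ratio of miR-511-3p to these markers, added after the values were seen, was lower in exosomes. Per 1000 myeloid marker counts it had 0 to 4.61 counts in IL4 exosomes and 17.1 to 18.8 in IL4 lysates, and 0 to 1.31 in control exosomes and 3.11 to 4.28 in control lysates (exact permutation test, two-sided, p = 0.0286 for each, the smallest possible). For miR-511-5p the means were 1.81 in IL4 exosomes against 3.82 in IL4 lysates (exact permutation p = 0.114) and 0.238 in control exosomes against 1.01 in control lysates (p = 0.0857). The myeloid marker miR-223-3p was itself lower in IL4 than in control lysates, as given above.

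Whether IL4 changed miR-511 differently in exosomes and lysates could not be resolved. The IL4 effect in exosomes minus that in lysates was -0.60 on the log2 scale for the 3p arm (SE 0.97, 95% confidence interval -2.68 to 1.48) and 0.20 for the 5p arm (SE 1.01, interval -1.95 to 2.35), with an edgeR adjusted p of 0.9999 for each. With edgeR 0 of 338 lines were called (0%), and 14 had an unadjusted p under 0.05. With DESeq2, which filters in its own way, 0 of 1247 lines were called and 26 had an unadjusted p under 0.05.

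**Figure D4:**
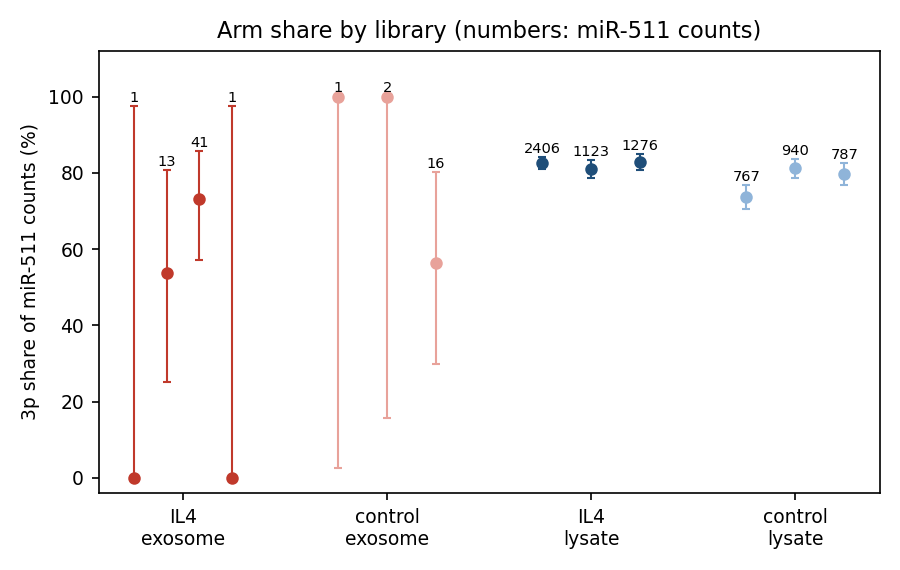
Share of miR-511 counts from the 3p arm in each library with at least 1 miR-511 count (percent), with exact 95% binomial intervals and the number of miR-511 counts above each. The lysates lie between 73.7% and 82.8% on 767 or more counts, and the exosome shares rest on 1 to 41 counts.

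The arm balance in exosomes rests on 75 miR-511 counts in all. In the libraries with at least 10 of them, the 3p share was 53.8% (7 of 13 counts, interval 25.1% to 80.8%) and 73.2% (30 of 41, 57.1% to 85.8%) in IL4 exosome replicates 2 and 3, and 56.2% (9 of 16, 29.9% to 80.2%) in control exosome replicate 3. The other libraries had 0 to 2 counts, and their shares of 0% or 100% carry no information on the balance. Summed over groups the share was 66.1% in IL4 exosomes (interval 52.2% to 78.2%) and 82.3% in IL4 lysates (81.2% to 83.4%), and 63.2% in control exosomes (38.4% to 83.7%) and 78.4% in control lysates (76.8% to 80.0%). Over both treatments the share was 65.3% in exosomes (53.5% to 76.0%) and 81.0% in lysates (80.1% to 81.9%). These intervals do not overlap, but they cover counting error only. Without IL4 exosome replicate 3 the share was 46.7% in IL4 exosomes (7 of 15 counts), and without control exosome replicate 3 it was 100% in control exosomes (3 of 3). A test over all libraries would count the shares of libraries with 1 or 2 counts in full, 2 of 4 with IL4 and 2 of 3 in controls, and nothing is read from it. Each of the 3 exosome libraries with at least 10 miR-511 counts had a measured share below that of every lysate. The nearest were IL4 exosome replicate 3 at 73.2% and control lysate replicate 1, of the other treatment, at 73.7%. The interval of each of these exosome libraries held the shares of some lysates, and the cut at 10 counts was chosen after seeing the data.

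**Figure D5:**
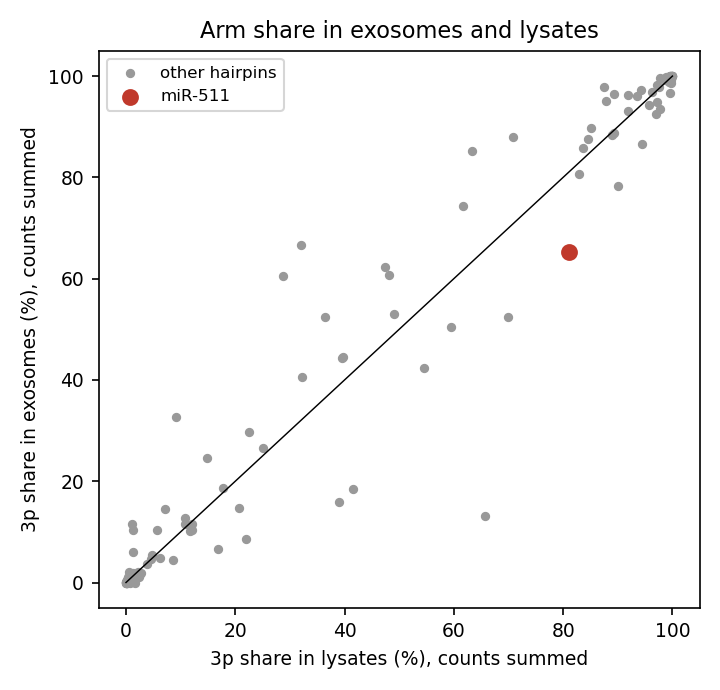
Share of the 3p arm (percent) in exosomes against lysates, counts summed over all libraries of each, for the 116 hairpins with both arms and at least 20 exosome counts; the line marks equal shares. The point of miR-511 lies below the line, at 65.3% in exosomes and 81.0% in lysates.

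Other hairpins give a scale for that shift. Of 116 hairpins with at least 100 counts in each lysate and 20 in exosomes, the arm less abundant in lysates had the larger share in exosomes in 54, and the median difference was -0.0161 points. The share of the miR-511 5p arm was 34.7% in exosomes and 19.003% in lysates, 15.7 points higher. A gain of the less abundant arm at least that large was seen in 7 of the 116 hairpins, miR-511 included. Shifts at least as large also went the other way. From lysates to exosomes the less abundant arm fell from 29.2% to 12.1% in miR-330 and from 36.7% to 14.8% in miR-467a. It fell from 41.5% to 18.5% in miR-877 and from 38.9% to 15.9% in miR-1306. In lysates miR-511 was among the more balanced hairpins: its less abundant arm ranked 23 of 118 by share, against a median of 2.84%. Only 40 of the 118 had a less abundant arm of at least 10%, so much of this background was less balanced than miR-511. In the myeloid marker hairpin miR-142a the 5p arm had 30.1% in lysates and 47.7% in exosomes.

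Ordered by mean level, miR-511-3p ran from control exosomes (29.3 CPM) over IL4 exosomes (41.7 CPM) and control lysates (108 CPM) to IL4 lysates (259 CPM). The 2 exosome groups did not differ beyond their spread. The control and IL4 lysates did by edgeR's test, and the measured levels of each exosome group lay below the lysates of its treatment. In controls the call of that last difference ended with scaling by library size alone (edgeR adjusted p = 0.0973). For miR-511-5p the order was control exosomes (8.79 CPM), control lysates (30.0 CPM), IL4 exosomes (35.03 CPM) and IL4 lysates (55.9 CPM). Each group in this order overlapped the next, and the 1 difference called for this arm was that between the IL4 and control lysates.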

How the data were processed

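Small RNA was sequenced from 14 mouse libraries. Per the labels' protocols, exosomes came from culture supernatant by OptiPrep gradient, and the NextFlex small RNA kit was used for library preparation; cutadapt and the mm10 build are named in the submitters' processing notes. No aligner or counting rule is given in the sources used here, so how reads shared by near-identical miRNAs were assigned is unknown. The authors deposited raw counts per mature miRNA line, 1250 lines in all; some near-identical miRNAs are joined in 1 line and others have a line each.

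From these counts, CPM (counts per 1000000 of the library total), exact Poisson intervals and exact binomial intervals of the 3p share were computed. Contrasts were tested with edgeR 4.0.16 (quasi-likelihood, TMM factors, filterByExpr, Benjamini-Hochberg adjustment over all lines tested, called at or under 0.05), within lysates or within exosomes for IL4, and over all 14 libraries between compartments. Members that failed the filter, and the 3p share, were compared by exact permutation tests. Alternatives were other scalings, no filter, DESeq2 1.42.0, a date block and leaving out each library. Scripts were tested on simulated counts.

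Dates in the titles pair an IL4 with a control library within each compartment. Deviations from the group means correlated between same-date libraries at 0.139 to 0.408 in exosomes and 0.306 to 0.720 in lysates. Between libraries of different dates they correlated at -0.427 to 0.1445 in exosomes and -0.620 to 0.426 in lysates, so the ranges overlapped. Subtracting the group means lowers the different-date values by construction. Named lines were the arms, the 5 lines most like each and the 3 most opposite over lysates, and the called or most abundant members of the lists. The miRNA of interest, its lists and these rules were chosen with earlier results of these data known.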

Additional observations from a re-analysis of the deposited data

Results flagged for a closer look

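In control exosomes the miR-511-5p level of replicate 3 stood apart from the other libraries of its group: it was 35.2 CPM (7 counts), and replicates 1, 2 and 4 had 0 counts. The gap to the nearest other library was the whole range of the group. With 0 counts the other 3 libraries allow up to 105.6, 55.2 and 82.0 CPM, above the level of replicate 3, whose total of 199025 counts was the largest of the group. The flag assumes continuous values, and whenever only 1 library of a group has a count the gap is the whole range. How often chance would flag such a group was not tested.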

How the results depend on the processing

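In lysates both arms stayed higher with IL4 under all alternatives run. The exact permutation test on CPM could not pass (150.7 CPM for 3p, 25.9 CPM for 5p; p = 0.1 each, the smallest possible). One fit over all 14 libraries gave 1.31 for 3p and 0.99 for 5p, and library size alone gave 0.90 for 5p, none of them called. Leaving out 1 library gave 1.27 to 1.47 for 3p and 0.97 to 1.11 for 5p. With the date as replicate block both arms stayed called (1.42, edgeR adjusted p = 0.00271, and 1.08, adjusted p = 0.0030), and lysate calls went to 50, against 32; the block ended no call of either arm. Lysate calls were 14 with library size, 4 in the 14-library fit and 2 to 34 with 1 library left out. Exosome calls were 1, 0 with library size, 12 without the filter and 0 to 2 with 1 library left out. Without the filter 3 lines were called for the difference of IL4 effects, against 0.

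In exosomes the IL4 difference ran from -5.01 to 26.3 CPM for 3p with 1 library left out. Between control exosomes and lysates 3p was at -1.65 with library size alone, and 5p ran from -9.22 to -1.12 with 1 library left out; the lowest value leaves control exosomes all at 0, depends on the prior count and is no estimate. With IL4 the same range for 5p was -1.88 to -0.98. The difference of IL4 effects for 5p was -0.0399 with DESeq2 and -0.0370 with the replicate block, and -0.34 to 7.97 with 1 library left out.

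The mean 3p share over libraries gives libraries with 1 or 2 counts full weight. Between IL4 exosomes and lysates its difference was -50.4 points (exact permutation p = 0.0857). It stayed negative in 10 of 10 alternatives (-64.2 to -16.3 points on the percent scale, and below 0 as a log2 ratio). IL4 exosome replicates 1 and 4, at 0% on 1 count each, pull the mean share down, so nothing is read from that tally. The difference was -16.3 points with summed counts and -18.7 in libraries with at least 10 miR-511 counts. The share comparisons below turned direction. IL4 against control exosomes differed by -53.7 points, by 2.91 with summed counts and by 7.26 in libraries with at least 10 miR-511 counts. Control exosomes against lysates differed by 7.21 points, by -15.3 with summed counts, by -22.0 in libraries with at least 10 counts, by -0.79 as a log2 ratio, and by -0.0852 to 21.8 with 1 library left out. For the difference of IL4 effects the share gave -57.6 points, -0.99 with summed counts, 3.27 in libraries with at least 10 counts, and -72.2 to -47.1 with 1 library left out; without IL4 exosome replicate 3 it passed (-71.5 points, permutation p = 0.01), on libraries of 1 to 16 counts in exosomes. The restriction to 10 counts was chosen after seeing the data. The causes of these changes were not tested. No date is shared between compartments, so no block was possible there.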

Other observations

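The 3 other hairpins whose IL4 difference in the lysate 3p share was most like that of miR-511 (3.99 points) were miR-29c, miR-664 and miR-330. For miR-29c, a regulator of collagen genes, the mean share was 86.8% in IL4 lysates and 82.5% in control lysates. For miR-664 it was 50.1% in IL4 lysates and 47.0% in control lysates, and for miR-330 it was 73.98% and 68.9% in IL4 and control lysates. Of 118 hairpins, 11, miR-511 included, had an absolute difference at least as large as that of miR-511. The median absolute difference was 0.463 points, over hairpins whose less abundant arm had a median share of 2.84% in lysates and so little room to move. In miR-511 itself the difference did not exceed the replicate spread (exact permutation p = 0.2).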
